A study of Mus musculus with 2 samples.

Results

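The Homer, Dlgap and Shank genes encode the scaffold that holds up the postsynaptic density of excitatory synapses. The set here was given as a list of 10 gene symbols (Homer1, Homer2, Homer3, Dlgap1, Dlgap2, Dlgap3, Dlgap4, Shank1, Shank2 and Shank3), and all 10 were found among the 32285 genes counted. Each was followed through the neuron subtypes of the hippocampus of tauopathy mice with and without the gene for the nucleic acid sensor ZBP1. Single-nucleus RNA sequencing compared the genotypes PS19 (PS19+/- Zbp1+/+) and PZKO (PS19+/- Zbp1-/-), all males aged 9 months. Both genotypes carry the PS19 transgene, which expresses human tau with the P301S change under the mouse prion protein promoter, and no mice without it were part of this comparison. Each genotype is represented by 1 library, which the study describes as pooled hippocampi of 5 animals. Elsewhere its methods say that the animals were processed separately, but the matrices hold no map from nuclei to animals. Genotype and library therefore cannot be told apart, no test between genotypes was possible, and every interval below is a 95% interval that covers counting error only.

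Homer proteins bind, through their EVH1 domain, short proline-rich motifs in metabotropic glutamate receptors, inositol trisphosphate receptors and Shank proteins, and the long forms join these partners through a coiled-coil tail. Dlgap proteins (also called SAPAP or GKAP) attach to the guanylate kinase domain of PSD-95 and, on their other side, to the PDZ domain of Shank. Shank proteins assemble into sheets deep in the postsynaptic density and carry the binding sites for Homer and for the actin regulator cortactin. Neuronal activity induces a short form of Homer1, Homer1a, which lacks the tail and uncouples the partners of the long forms. Counts per gene merge the short and the long forms, so the Homer1 values below are the sum of both.

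After filtering, 9590 PS19 nuclei (100729375 UMIs, median 5849.5 per nucleus) and 9307 PZKO nuclei (151995959 UMIs, median 9015) remained, where a UMI is a unique molecular identifier, 1 counted RNA molecule. Excitatory neurons made up 2737 and 2925 of these, with medians of 18743 and 27677 UMIs. Levels are given as UMIs per 1000000 UMIs of the same nuclei (CPM), since the PZKO library was deeper. Zbp1 had 92 UMIs in PS19 (0.913 CPM) and 38 in PZKO (0.25 CPM), so the gene was not at 0 in the knockout. A total of 30 cell barcodes occurred among the kept nuclei of both libraries.

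Clustering gave 14 neuron subtypes, of which 10 were excitatory. The clusters named from markers resembled dentate granule cells, CA1, CA3, subiculum, near-projecting neurons and upper-layer cortex. The last of these, led by Rorb and Cux2, carries markers of cortex rather than of the labelled tissue, hippocampus. A further 4 excitatory clusters did not meet the naming rule and are called by their leading genes (Foxp2 and Syt6, Cdh20 and Unc13c, Ptprm and Il1rapl2, Cpa6 and Tcerg1l). Of these, the Foxp2 and Syt6 cluster scored high on 2 lists of cortical neurons, layer 6b (2.24) and deep-layer corticothalamic (1.99). The scores lay closer than the margin of 0.5 needed for a name, so this cluster also carries markers of cortex. The others were 2 interneuron clusters marked by Lhx6 and by Adarb2, an inhibitory cluster led by Meis2 and Zfhx3, and a small cluster that resembled Cajal-Retzius cells. Clusters that matched no cell class were left out of the neurons, though some were as deep as neurons. An example is a cluster led by Adamts19 and Synpo2 (55 PS19 and 69 PZKO nuclei, medians of 35483 and 59567 UMIs). The mix of excitatory nuclei differed between the libraries: dentate granule-like nuclei made up 36.9% in PS19 (35.1% to 38.7%) and 17.5% in PZKO (16.2% to 19.0%), whereas upper-layer cortex-like nuclei made up 6.07% (5.20% to 7.03%) and 11.7% (10.6% to 12.9%). A ratio over all excitatory nuclei therefore mixes level with makeup, and each gene is described below in the pooled nuclei, within subtypes, and at fixed subtype shares (the same weight for a subtype in both libraries).

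All 10 genes had at least 100 UMIs over both libraries in excitatory nuclei. In the pooled nuclei their median log2 ratio, PZKO over PS19, was 0.23, and 8 of 10 lay above 0. Over the 15849 genes tested the median was -0.07 and 38.1% lay above 0. At fixed subtype shares the median of the 10 genes was 0.18 with 9 of 10 above 0, beside a median of -0.05 and 38.9% above 0 over all genes. Homer1 was the 1 gene of the 10 past a log2 ratio of 0.5 in the pooled nuclei, where 3.23% of all genes were that much higher in PZKO and 7.09% that much lower. At fixed shares it was again the 1 gene past this line, at 0.51, beside 1.6% of all genes higher and 4.67% lower. No member was lower by 0.5 in either comparison. The study had named Homer1, Homer2 and Dlgap3 as higher in PZKO excitatory neurons of these same data. The 10 genes were chosen with earlier results known, so their excess over all genes is a description and not independent support.

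**Figure D1:**
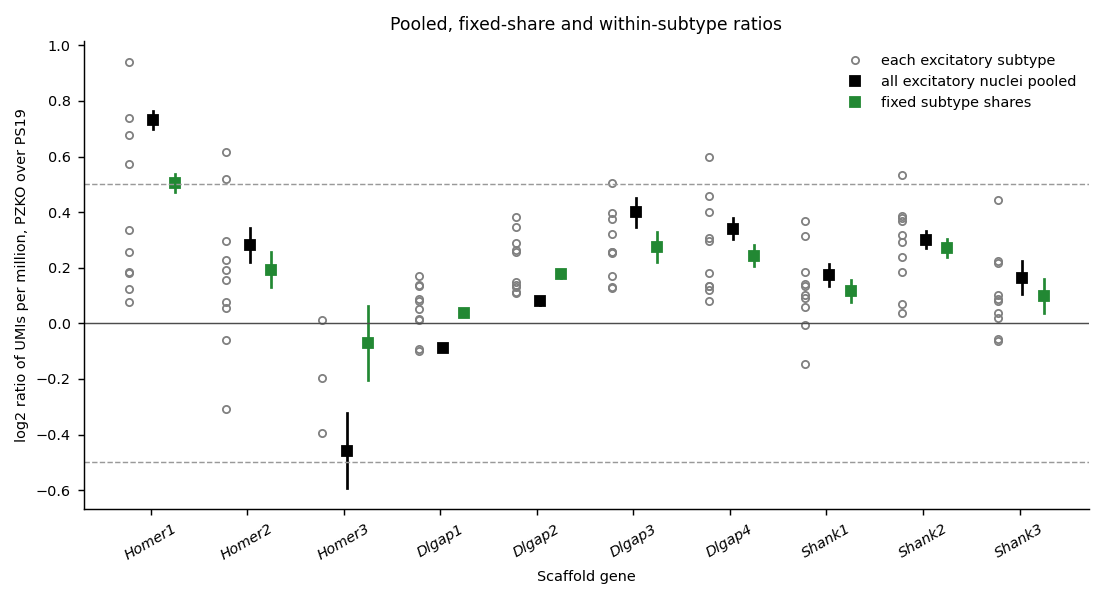
The vertical axis is the log2 ratio of CPM, PZKO over PS19, and each scaffold gene has its own column. Open circles are excitatory subtypes with at least 100 UMIs, the black square is all excitatory nuclei pooled and the green square is the value at fixed subtype shares (bars are 95% counting intervals, dashed lines mark 0.5 and -0.5). Homer1 goes from 0.73 pooled to 0.51 at fixed shares, Homer3 from -0.46 to -0.07, and Dlgap1 from -0.09 to 0.04.

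Homer1 (ENSMUSG00000007617, chr13:93299635-93405129, plus strand, GRCm38) had the highest ratio of the family. It spans 105 kb, of which 88.6% is intronic in every annotated transcript. Of its 11 coding transcripts in GENCODE M21, 3 end at or before position 93367134, the short forms, and the gene runs on for a further 38.0 kb. Homer1 had 11191 UMIs in PS19 excitatory nuclei (193 CPM) and 28854 in PZKO (321 CPM), which gives a log2 ratio of 0.73 (0.70 to 0.76). At fixed subtype shares the ratio was 0.51 (0.47 to 0.54). The difference in makeup alone, with the levels of PS19 or of PZKO held in both libraries, gave 0.19 or 0.27. The call at fixed shares is close to the line: over 10 alternative settings it ranged from 0.47 to 0.56 and stayed past 0.5 in 7 of them. Among the 7 is the setting with no UMI minimum, which could not change this value.

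The level of Homer1 varied strongly among neurons. It was highest in the upper-layer cortex-like nuclei, at 342 CPM in PS19 (323 to 361) and 655 in PZKO (640 to 671). The Ptprm and Il1rapl2 cluster followed with 295 and 492 CPM, and the Foxp2 and Syt6 cluster with 314 and 467, which are not separated from each other. Subiculum-like nuclei had 219 and 349 CPM and CA1-like nuclei 229 and 250. Dentate granule-like nuclei, at 82.4 and 98.5 CPM, lay with the Lhx6 and Adarb2 interneurons at the lower end, where neighbours were not separated. The Cajal-Retzius-like nuclei had 3 and 9 Homer1 UMIs in all. Oligodendrocytes, given here as a gauge of free RNA, had 43.3 and 47.6 CPM. The order of the 14 subtypes was nearly the same in both libraries (Spearman's rho 0.95 over 14 subtypes, a description, since the libraries were clustered together).

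Within subtypes, Homer1 was higher in PZKO in all 10 excitatory subtypes, and the interval excluded 0 in 9. In 4 subtypes the ratio was past 0.5, and in the other 6 it was 0.34 or lower. Upper-layer cortex-like nuclei had a log2 ratio of 0.94 (0.85 to 1.03), Ptprm and Il1rapl2 nuclei 0.74 (0.65 to 0.82), subiculum-like nuclei 0.68 (0.56 to 0.79) and Foxp2 and Syt6 nuclei 0.57 (0.49 to 0.65). The ratio was 0.34 in near-projecting-like (0.12 to 0.55), 0.26 in dentate granule-like (0.14 to 0.38) and 0.19 in Cdh20 and Unc13c nuclei (0.02 to 0.35). The lowest values were 0.18 in CA3-like (0.08 to 0.28), 0.12 in CA1-like (0.05 to 0.20) and 0.08 in Cpa6 and Tcerg1l nuclei (-0.12 to 0.27). Set against the pooled excitatory ratio, the interval of the difference lay above 0 in 1 subtype, upper-layer cortex-like, by 0.21 (0.13 to 0.29), and below 0 in 7, for example by -0.61 in CA1-like nuclei (-0.68 to -0.54). Among inhibitory neurons the ratio was -0.01 in the Lhx6 cluster (-0.18 to 0.16) and 0.15 in the Adarb2 cluster (-0.07 to 0.37). In the Meis2 and Zfhx3 cluster it was -0.497 (-0.66 to -0.33), from 178 CPM in PS19 to 126 in PZKO. Of all genes tested in that cluster, 9.64% were lower in PZKO by at least 0.5.

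The Homer1 count was carried unequally by the nuclei of a subtype. With every nucleus reduced to 4000 UMIs (an expected value, with 6 PS19 and 10 PZKO nuclei left out as too shallow), 41.3% of PS19 excitatory nuclei (39.5% to 43.2%) and 51.5% of PZKO nuclei (49.7% to 53.3%) held at least 1 Homer1 UMI, a difference of 10.2 percentage points. At full depth the shares were 79.9% and 90.1%. Oligodendrocytes reduced in the same way gave 14.8% and 14.9% (12.4% and 17.2% at full depth), with median depths of 3330 and 4246 UMIs, so that 1689 of 2581 and 1033 of 2258 were left out. Nuclei with 3 or more Homer1 UMIs at this depth made up 5.52% (4.70% to 6.45%) of excitatory nuclei in PS19 and 13.1% (11.9% to 14.4%) in PZKO. In upper-layer cortex-like nuclei these shares were 15.9% (10.7% to 22.3%) and 33.1% (28.1% to 38.3%), whereas in CA1-like nuclei they were 7.61% (5.17% to 10.7%) and 9.20% (6.54% to 12.5%). At full depth, the 10% of upper-layer cortex-like nuclei with the most held 33.1% of their Homer1 UMIs in PS19 and 42.6% in PZKO. The highest single nuclei there had 65 and 192 UMIs. These values are not corrected for depth, with medians of 22300 and 29583 UMIs in this cluster. The same 10% share was 39.4% and 47.3% in Ptprm and Il1rapl2 nuclei. It was 39.7% and 40.1% in dentate granule-like and 33.7% and 32.1% in CA3-like nuclei.

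The genes whose level followed Homer1 most closely over the 14 neuron subtypes were Npas4 (Pearson's r 0.99), Junb (0.95) and 1700016P03Rik (0.95), among 12751 genes compared on log2(CPM + 1) as the mean of both libraries. Npas4 encodes an activity-induced transcription factor of neurons and Junb a member of the AP-1 family. Without the Cajal-Retzius-like cluster Npas4 was still first (r 0.98 over 13 subtypes) and Junb ranked 4 (r 0.92). Because Homer1 is itself known as an activity-induced gene, the upstream sequences of Homer1, Npas4 and Junb were scanned for TGACG, the core of the site bound by CREB, on either strand. RefSeq promoters (GRCm38.p6) were found for 7 of the 10 scaffold genes in 10 windows. The 250 bases before the start site are shown 5′ to 3′ on the strand of the gene, with TGACG or its complement CGTCA in capitals, for Homer1 at chr13:93303507-93303756 (plus strand) and Npas4 at chr19:4989972-4990221 (minus strand):
Homer1: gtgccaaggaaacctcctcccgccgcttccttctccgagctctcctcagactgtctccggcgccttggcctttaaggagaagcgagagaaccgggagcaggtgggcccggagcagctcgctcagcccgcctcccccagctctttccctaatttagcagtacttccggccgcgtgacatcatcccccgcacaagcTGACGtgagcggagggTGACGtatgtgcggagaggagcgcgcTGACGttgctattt
Npas4: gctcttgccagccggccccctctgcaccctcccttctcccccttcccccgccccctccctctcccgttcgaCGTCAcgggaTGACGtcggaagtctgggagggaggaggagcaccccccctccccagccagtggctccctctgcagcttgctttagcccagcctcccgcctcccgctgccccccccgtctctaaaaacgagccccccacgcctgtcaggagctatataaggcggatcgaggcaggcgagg
The Homer1 window held TGACG 3 times, the Npas4 window 2 times and the Junb window (not shown) 1 time. The second Homer1 start, at chr13:93307784-93308033, and the windows of the other 6 scaffold genes held none. Of 32851 promoter windows, 17.8% held TGACG and 0.688% held it at least 3 times. That cut-off of 3 equals the count of the Homer1 window itself, so the lower share is only a description. The complete palindrome TGACGTCA, present in 1.55% of windows, and the AP-1 letters TGACTCA, present in 4.46%, were in no scaffold window. A further string that was scanned, GCGGGGGCG, was in 2.57% of windows and, among scaffold genes, in that of Shank3. These are matches of letters and not evidence of binding.

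A list of 13 activity genes (Fos, Fosb, Junb, Arc, Npas4, Egr1, Egr3, Egr4, Nr4a1, Nr4a3, Bdnf, Nptx2 and Inhba) was set beside Homer1. The study had named Fos, Arc, Npas4, Egr1 and Nr4a1 as higher in PZKO excitatory neurons of these same data. The list was chosen with earlier results known, so its excess over all genes is a description and not independent support. In pooled excitatory nuclei 11 of 13 lay above 0 and 7 past 0.5, with a median log2 ratio of 0.56, beside 3.23% of all genes past 0.5. At fixed subtype shares 11 of 13 lay above 0 and 4 past 0.5, with a median of 0.38, beside 1.6% of all genes. Arc, an immediate early gene of dendrites, had 18.2 CPM in PS19 and 29.4 in PZKO, a log2 ratio of 0.69 (0.59 to 0.80). Npas4 had 7.33 and 13.5 CPM, a log2 ratio of 0.88 (0.72 to 1.04), whereas Bdnf, a secreted neurotrophin, had 48.3 and 46.4 CPM (-0.06, with an interval of -0.13 to 0.01). The median of the activity list was 1.01 in Ptprm and Il1rapl2 nuclei and 0.81 in upper-layer cortex-like nuclei (12 of 13 above 0 in each). It was 0.37 in Foxp2 and Syt6 nuclei and 0.31 in subiculum-like nuclei. It was -0.14 in CA1-like nuclei (0 of 12 above 0), -0.30 in CA3-like nuclei (2 of 9) and 0.02 in dentate granule-like nuclei (4 of 7). The 4 subtypes with Homer1 past 0.5 all had a list median above 0, but so did subtypes with a lower Homer1 ratio. The list median was 0.31 in Cpa6 and Tcerg1l nuclei (6 of 7 above 0), where Homer1 was at 0.08 with an interval that spanned 0. It was 0.78 in near-projecting-like nuclei (2 genes tested) and 0.50 in Adarb2 interneurons (3 genes), beside Homer1 ratios of 0.34 and 0.15. CA1-like, CA3-like and Cdh20 and Unc13c nuclei had a Homer1 ratio above 0 and a list median below 0. In the Lhx6 interneurons 2 genes of the list had enough UMIs, with a median of 0.88, beside a Homer1 ratio of -0.01. In the Meis2 and Zfhx3 cluster the list median was -0.25 (0 of 4 above 0), beside a Homer1 ratio of -0.50.

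**Figure D2:**
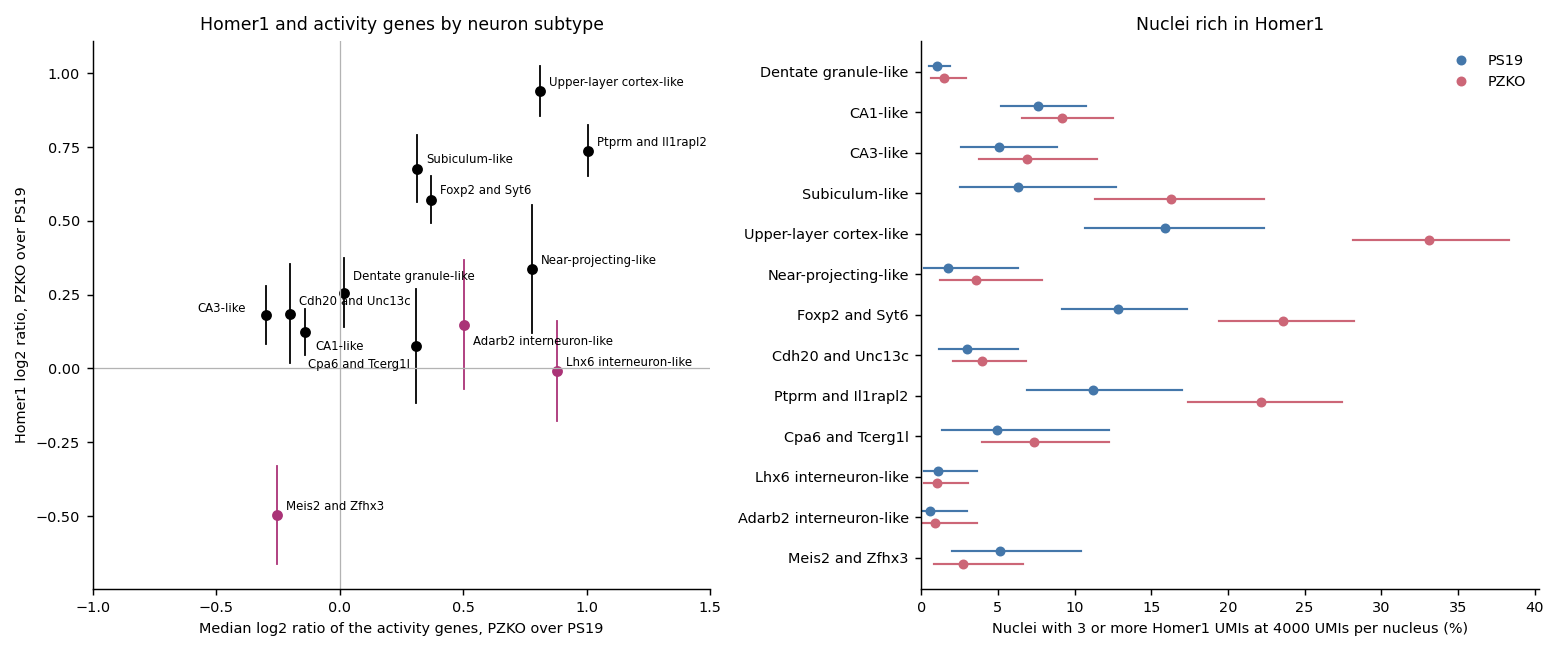
Left, the log2 ratio of Homer1 (vertical, bars are 95% counting intervals) against the median log2 ratio of the activity genes with at least 100 UMIs (horizontal), PZKO over PS19, for 13 neuron subtypes, excitatory in black and inhibitory in purple. Right, the percentage of nuclei with 3 or more Homer1 UMIs after reduction to 4000 UMIs per nucleus, with exact 95% intervals. Upper-layer cortex-like nuclei lie at 0.81 and 0.94 on the left and go from 15.9% in PS19 to 33.1% in PZKO on the right.

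Homer2 (ENSMUSG00000025813, chr7:81600481-81707527, minus strand), a long-form Homer protein with the same EVH1 domain, had a different distribution. Its highest levels were in Cajal-Retzius-like nuclei (177 CPM in PS19 and 174 in PZKO) and Adarb2 interneurons (167 and 146), which are not separated from each other. The Cajal-Retzius-like values rest on 27 and 40 UMIs. The next levels were in the Cpa6 and Tcerg1l cluster (131 and 126) and CA1-like nuclei (115 and 120). Its lowest were in near-projecting-like nuclei (26.1 and 21.1 CPM), and the subtypes from upper-layer cortex down to near-projecting were not separated from their neighbours. Over the 14 subtypes Pearson's r between its level and that of Homer1 was -0.40, a description in which the points share libraries and depth. Without the Cajal-Retzius-like cluster it was -0.17 over 13 subtypes, so much of the value rested on that cluster. The pooled excitatory log2 ratio was 0.28 (0.22 to 0.34), from 55.6 to 67.6 CPM, and 0.19 (0.13 to 0.26) at fixed shares. The difference was largest in dentate granule-like nuclei, with 31.3 CPM in PS19 (28.6 to 34.3) and 48.0 in PZKO (44.0 to 52.2), a log2 ratio of 0.61 (0.43 to 0.80). It was 0.52 (0.28 to 0.76) in upper-layer cortex-like nuclei and 0.06 (-0.05 to 0.17) in CA1-like nuclei. Homer2 was the only member of the 10 past 0.5 in dentate granule-like nuclei, where 1.19% of all genes were, and it was past 0.5 there under all 9 alternatives tried (0.52 to 0.71). The setting with no UMI minimum is among the 9 and could not change this value. Homer2 was lower in PZKO in Adarb2 interneurons, by -0.19 (-0.35 to -0.03).

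Homer3 (ENSMUSG00000003573, chr8:70282827-70294361, plus strand), the Homer protein best known from cerebellar Purkinje cells, was highest in 1 subtype. CA3-like nuclei had 57.6 CPM in PS19 (52.5 to 63.0) and 58.1 in PZKO (53.6 to 63.0), separated from all other neurons. Dentate granule-like nuclei had 14.8 and 12.9 CPM and CA1-like nuclei 11.7 and 8.91, both below oligodendrocytes (22.6 and 26.0) and microglia (23.9 and 28.5). The other 11 neuron subtypes had from 0 to 10 Homer3 UMIs in PS19 and from 1 to 27 in PZKO. The share of excitatory nuclei with a Homer3 UMI at 4000 UMIs, 4.72% in PS19 and 3.11% in PZKO, was below that of oligodendrocytes (7.89% and 8.93%). For Homer3 oligodendrocytes are a poor gauge of free RNA, since Foxp2 and Syt6 nuclei, for example, had only 1.22 and 1.31 CPM. Dentate granule-like and CA1-like nuclei lay above that level, and the part of free RNA in their counts was not tested. The pooled ratio was -0.46 (-0.59 to -0.32), but within the CA3-like nuclei it was 0.01 (-0.16 to 0.19), within dentate granule-like nuclei -0.20 (-0.51 to 0.11) and within CA1-like nuclei -0.40 (-0.78 to -0.01). At fixed shares it was -0.07 (-0.20 to 0.06), and the difference in makeup alone gave -0.40 or -0.38. Most of the pooled value was thus obtained with the level of each subtype held equal.

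Dlgap1 (ENSMUSG00000003279, chr17:69969073-70821413, plus strand) spans 852 kb, 97.9% of it intronic, and Dlgap2 (ENSMUSG00000047495, chr8:14095865-14847680, plus strand) spans 752 kb. Both encode linkers between PSD-95 and Shank. Dlgap1 was highest in Lhx6 interneurons, with 4493 CPM in PS19 and 4777 in PZKO, followed by dentate granule-like (4036 and 4182) and CA1-like nuclei (4081 and 4124). It was lowest among excitatory subtypes in near-projecting-like nuclei (1138 and 1281 CPM). Dlgap2 had its highest levels in the same interneurons, at 2070 and 2437 CPM, and in dentate granule-like nuclei, at 1724 and 1913 CPM. Both were nearly absent from Cajal-Retzius-like nuclei, where Dlgap1 had 3 and 8 UMIs and Dlgap2 had 1 in each library. The correlation of the pair over 14 subtypes (Pearson's r 0.97) rested on this cluster and was 0.63 over the other 13. Dlgap1 also had 817 and 916 CPM in astrocytes, whereas oligodendrocytes and microglia had between 52.8 and 58.4 CPM.

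The pooled ratio of Dlgap1 had the opposite sign to most of its subtypes. Over all excitatory nuclei it was -0.09 (-0.10 to -0.08), from 3016 to 2838 CPM. Within subtypes 8 of 10 ratios lay above 0, 6 with an interval above 0, among them near-projecting-like (0.17, with an interval of 0.10 to 0.24), Foxp2 and Syt6 (0.14, 0.10 to 0.17) and dentate granule-like nuclei (0.05, 0.03 to 0.07). Subiculum-like nuclei (-0.09, -0.12 to -0.06) and Ptprm and Il1rapl2 nuclei (-0.10, -0.14 to -0.06) were below 0. At fixed shares the ratio was 0.04 (0.03 to 0.05), and the difference in makeup alone gave -0.12 or -0.13. Without the dentate granule-like cluster the pooled ratio was -0.00, an alternative added after the data were seen. These differences are small beside the spread of all genes, whose middle 50% ran from -0.24 to 0.09 in the pooled nuclei.

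Dlgap2 lay above 0 in all 10 excitatory subtypes, each with an interval above 0, and its interval against the pooled ratio lay above 0 in all 10. The pooled ratio was 0.08 (0.07 to 0.09), from 1378 to 1456 CPM, and the value at fixed shares was 0.18 (0.16 to 0.19). The highest ratios were in Cpa6 and Tcerg1l nuclei (0.38, 0.31 to 0.46) and upper-layer cortex-like nuclei (0.35, 0.30 to 0.39). CA1-like (0.11, 0.08 to 0.14) and CA3-like nuclei (0.11, 0.08 to 0.14) had the lowest. The Adarb2 and Lhx6 interneurons had 0.34 and 0.24, and the Meis2 and Zfhx3 cluster went the other way, from 938 to 780 CPM (-0.27, with an interval of -0.33 to -0.20).

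Dlgap3 (ENSMUSG00000042388, chr4:127169204-127237022, plus strand), best known from the striatum, and Dlgap4 (ENSMUSG00000061689, chr2:156613705-156764363, plus strand), a broadly expressed member, were both higher in PZKO. Dlgap3 had 74.2 and 97.8 CPM in pooled excitatory nuclei, a log2 ratio of 0.40 (0.35 to 0.45) that became 0.27 (0.22 to 0.33) at fixed shares. It was highest in upper-layer cortex-like nuclei, with 123 CPM in PS19 (112 to 134) and 174 in PZKO (166 to 182), a log2 ratio of 0.50 (0.36 to 0.65). All 10 excitatory subtypes had a ratio above 0, and the interval was above 0 in 6. Near-projecting-like nuclei had the lowest level, at 20.9 and 27.5 CPM. Oligodendrocytes and microglia had 3.99 to 9.80 CPM.

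Dlgap4 had 146 CPM in PS19 and 184 in PZKO over pooled excitatory nuclei, a log2 ratio of 0.34 (0.30 to 0.38), and 0.24 (0.20 to 0.28) at fixed shares. All 10 excitatory subtypes lay above 0, 8 with an interval above 0, from 0.08 (-0.03 to 0.19) in dentate granule-like to 0.60 (0.45 to 0.75) in upper-layer cortex-like nuclei. The latter lay above the pooled ratio by 0.26 (0.12 to 0.40). None of the 13 steps between neighbours in the order of subtypes was separated, but the ends were apart. Near-projecting-like nuclei had 193 CPM in PS19 (176 to 212) and 239 in PZKO (224 to 255). Lhx6 interneurons had 75.5 (68.1 to 83.6) and 99.7 (93.3 to 106). Dlgap4 had a level in microglia (135 and 125 CPM) above that of dentate granule-like nuclei (93.7 and 99.0), with 36.9% and 36.2% of microglia holding a UMI at 4000 UMIs. Microglia did not share the neuronal direction of Dlgap4, with a log2 ratio of -0.12 (-0.31 to 0.08). Some other members had an interval above 0 in glia, at low levels in oligodendrocytes, the gauge of free RNA. In oligodendrocytes Dlgap2 had 9.16 CPM in PS19 and 16.4 in PZKO, a log2 ratio of 0.84 (0.46 to 1.24). Shank2 had 5.92 and 9.07 CPM (0.61, 0.12 to 1.12) and Homer2 6.03 and 9.17 (0.60, 0.11 to 1.11). Shank1 had 20.8 and 27.0 CPM (0.38, 0.11 to 0.65). The interval spanned 0 there for Homer1, Homer3, Dlgap1, Dlgap3 and Dlgap4. The share of all genes past 0.5 was not computed for glia, and the part of free RNA in these ratios was not tested. Microglia had 0.70 (0.22 to 1.19) for Shank1. Astrocytes had 0.32 for Homer1, 0.36 for Shank1 and 0.17 for Dlgap1, but -0.46 for Homer2.

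Shank1 (ENSMUSG00000038738, chr7:44310253-44360572, plus strand), Shank2 (ENSMUSG00000037541, chr7:144001928-144424494, plus strand) and Shank3 (ENSMUSG00000022623, chr15:89499623-89560261, plus strand) encode the scaffold layer that joins Dlgap to Homer and to actin. Shank1 was highest in CA1-like nuclei, with 196 CPM in both libraries, and none of its 13 steps between neighbours in the order of subtypes was separated. Dentate granule-like nuclei, further down, had 110 CPM in PS19 (105 to 116) and 117 in PZKO (111 to 124). Its pooled log2 ratio was 0.17 (0.13 to 0.21), from 140 to 157 CPM, and 0.12 (0.08 to 0.16) at fixed shares. Upper-layer cortex-like nuclei (0.37, 0.23 to 0.51) and Ptprm and Il1rapl2 nuclei (0.31, 0.17 to 0.45) lay above the pooled ratio. CA1-like nuclei had -0.00 (-0.09 to 0.08).

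Shank2 had an interval above 0 in 11 of the 13 neuron subtypes tested, the most of the Shank genes. It had 220 and 271 CPM in pooled excitatory nuclei, a log2 ratio of 0.30 (0.27 to 0.33), and 0.27 (0.24 to 0.30) at fixed shares. All 10 excitatory subtypes lay above 0, 8 with an interval above 0, and the highest was the subiculum-like cluster with 171 CPM in PS19 (158 to 185) and 247 in PZKO (237 to 258), a log2 ratio of 0.53 (0.40 to 0.66). CA3-like nuclei (0.07, -0.01 to 0.15) and near-projecting-like nuclei (0.04, -0.16 to 0.24) were the 2 whose interval spanned 0. The Lhx6 interneurons, which had the lowest neuronal level (62.2 and 89.0 CPM), had a log2 ratio of 0.52 (0.33 to 0.71). Shank2 was also the one member with an interval above 0 in the Meis2 and Zfhx3 cluster besides Dlgap1, at 0.30 (0.14 to 0.46).

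Shank3, whose loss in people underlies Phelan-McDermid syndrome, had the fewest subtypes with an interval above 0 of the Shank genes. It had 60.5 and 67.8 CPM in pooled excitatory nuclei, a log2 ratio of 0.16 (0.10 to 0.22), and 0.10 (0.04 to 0.16) at fixed shares. The interval was above 0 in 2 of 10 excitatory subtypes, Ptprm and Il1rapl2 (0.44, 0.24 to 0.66) and Foxp2 and Syt6 (0.22, 0.03 to 0.42). In the other 8 the interval spanned 0, with counts of 116 to 937 UMIs per library. Their ratios ran from -0.07 (-0.22 to 0.09) in dentate granule-like nuclei to 0.22 (-0.11 to 0.55) in near-projecting-like nuclei. None of its 13 steps between neighbours in the order of subtypes was separated. Further apart in the order, upper-layer cortex-like nuclei had 81.5 and 87.5 CPM and Lhx6 interneurons 43.3 and 48.8.

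**Figure D3:**
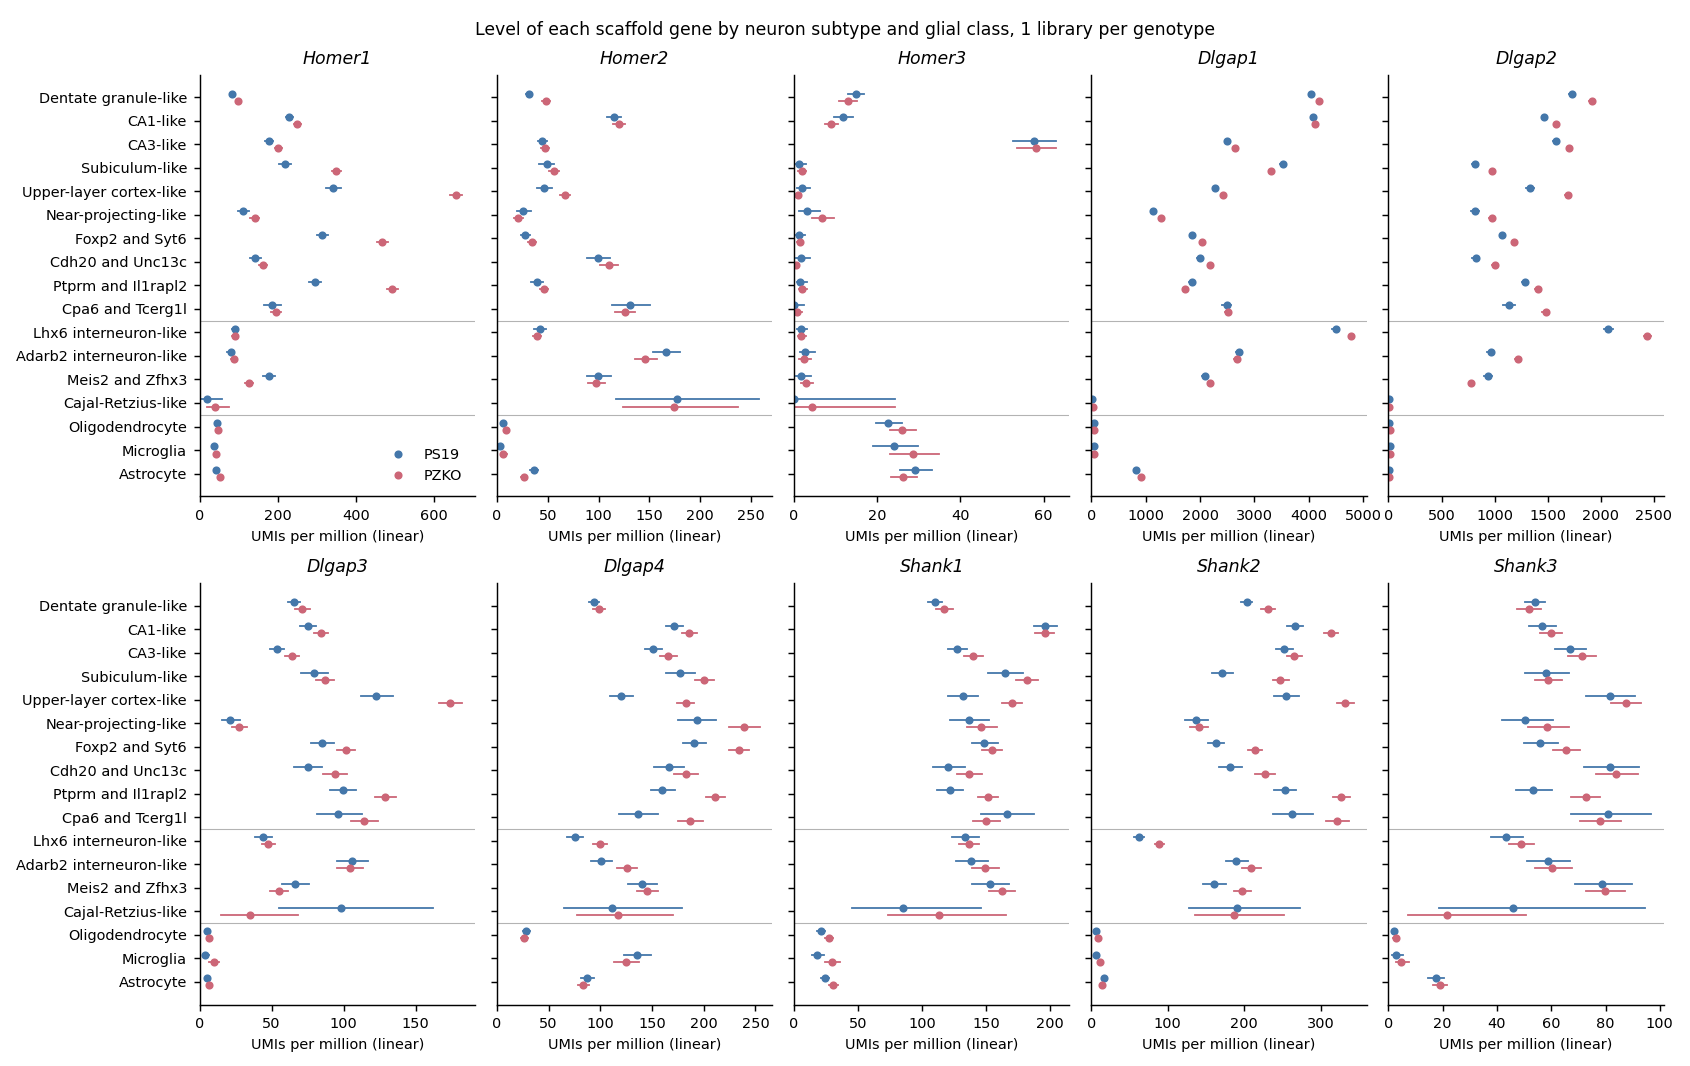
Each panel is 1 scaffold gene, the horizontal axis is CPM on a linear scale from 0, and rows are excitatory subtypes, inhibitory and Cajal-Retzius-like subtypes, and glial classes (PS19 blue, PZKO red, bars are exact Poisson 95% intervals). Axes differ between panels and levels are not comparable between genes. Homer3 stands out in CA3-like nuclei (57.6 and 58.1), Homer1 in upper-layer cortex-like nuclei (342 and 655), and Dlgap1 and Dlgap2 in Lhx6 interneurons.

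Read across genes, the upper-layer cortex-like cluster was the one with the most members past 0.5. Homer1, Homer2, Dlgap3 and Dlgap4 were higher by that much, 4 of the 9 members tested there, beside 5.39% of all genes, and the median of the members was 0.38 beside 0.01 over all genes. At a coarser clustering 3 of the 4 lay below the line (Homer2 at 0.42 and also below it under 2 other settings, Dlgap3 at 0.48 and Dlgap4 at 0.47) and Homer1 stayed above it. In subiculum-like nuclei Homer1 and Shank2 were past 0.5 (3.26% of all genes), Shank2 not without removal of doublets (0.49). Homer1 alone was past it in Foxp2 and Syt6 nuclei (2% of all genes) and in Ptprm and Il1rapl2 nuclei (3.99%), and Shank2 alone in Lhx6 interneurons (2.07%). In Foxp2 and Syt6 nuclei Homer1 was at 0.41 under a stricter filter on nuclei. No member was that much higher in CA1-like (2.08% of all genes), CA3-like (2.93%), Cdh20 and Unc13c (2.04%), near-projecting-like (3.19%) or Cpa6 and Tcerg1l nuclei (5.52%). No member with at least 100 UMIs was past 0.5 higher in Adarb2 interneurons (2.52%) or in the Meis2 and Zfhx3 cluster (8.41%). In Cpa6 and Tcerg1l nuclei Dlgap4, at 0.46, was past 0.5 under 4 of 9 alternatives (up to 0.77), and Shank2, at 0.29, under 2 of 9 (0.52 and 0.58). Dlgap3 in near-projecting-like nuclei, at 0.40, was past it under 1 of 9 (0.54).

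**Figure D4:**
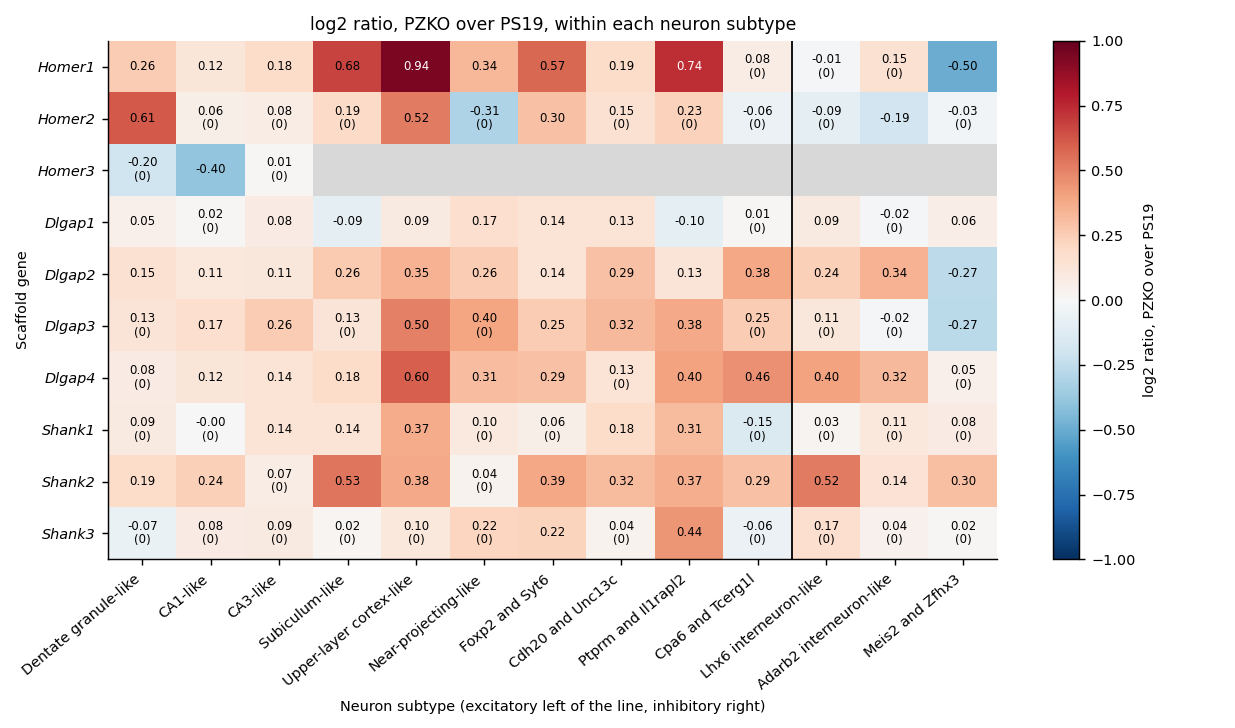
Rows are the scaffold genes and columns 13 neuron subtypes, excitatory to the left of the line and inhibitory to the right; colour and number give the log2 ratio, PZKO over PS19. A (0) marks a ratio whose 95% counting interval spans 0, and grey marks fewer than 100 UMIs over both libraries. The highest value is Homer1 in upper-layer cortex-like nuclei (0.94) and the lowest is Homer1 in the Meis2 and Zfhx3 cluster (-0.50).

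A list of 32 other genes of the postsynaptic density was set beside the scaffold. In pooled excitatory nuclei its median was 0.05, 18 of 32 lay above 0, none was past 0.5 higher and 1 was past 0.5 lower. The lowest were Lrrtm1, a synaptic adhesion protein (-0.50), and the light chains Dynll1 (-0.42) and Dynll2 (-0.40), which bind Dlgap proteins. The highest were Cacng3, an auxiliary subunit of AMPA receptors (0.32), and the exchange factors Arhgef7 (0.26) and Trio (0.25). At fixed shares the median was 0.06 with 22 of 32 above 0 and none past 0.5 in either direction. In upper-layer cortex-like nuclei it was 0.14, and in the Meis2 and Zfhx3 cluster -0.23 with 5 of 32 above 0. Some direct partners of the scaffold, named after their values were seen, had log2 ratios of -0.05 for Grm5, a glutamate receptor bound by Homer, 0.21 for Itpr1, a calcium channel bound by Homer, and 0.11 for Dlg4, which encodes PSD-95.

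The other scaffold genes also had levels that tracked named genes over the 14 subtypes, given as a description. Homer2 was closest to Tnrc18 (Pearson's r 0.86), Amot (0.83) and Col5a2 (0.82), and Homer3 to Ifi203 (0.92), Trit1 (0.90) and Il16 (0.89). Dlgap4 was closest to Sv2b, a synaptic vesicle protein (0.92), Gm14169 (0.89) and Slc20a1 (0.88), and Dlgap3 to Cck (0.75), Lrrc8c (0.74) and Slc23a2 (0.73). Shank1 was closest to Far1 (0.88), Gm26861 (0.85) and Akap8l (0.84). Shank2 was closest to Gm41764 (0.88), Inka2 (0.86) and Gpm6b (0.84), and Shank3 to Lepr (0.89), Ptpn12 (0.89) and Tor3a (0.88). For Dlgap1 (Olfr239, 0.98, Gm14443, 0.98, and Hs1bp3, 0.98) and Dlgap2 (9330151L19Rik, 0.98, Rxrb, 0.98, and Tmem104, 0.98) the likeness rested on the near-empty Cajal-Retzius-like cluster. Without it their ranks were 24 to 67 for Dlgap1 and 130 to 836 for Dlgap2. The genes named for Dlgap3 then had ranks of 8 to 15, those for Shank1 of 6 to 36 and those for Shank3 of 2 to 23.

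Measures of RNA quality and of other cells differed between the libraries in the same nuclei. In pooled excitatory nuclei 13 mitochondrially encoded genes had a median log2 ratio of -0.71 (0 of 13 above 0) and 89 ribosomal protein genes -0.41 (6 of 89 above 0). In the 4 subtypes with Homer1 past 0.5, the mitochondrial median was -0.22 in upper-layer cortex-like, -0.65 in Ptprm and Il1rapl2, -1.31 in subiculum-like and -0.98 in Foxp2 and Syt6 nuclei, and the ribosomal median -0.11, -0.14, -0.30 and -0.37. Summed astrocyte markers had a log2 ratio of 0.62 in subiculum-like nuclei, where Homer1 and Shank2 were past 0.5. The ratio of these markers was 0.57 in Cpa6 and Tcerg1l nuclei, where no member was past 0.5. It was -0.02 in upper-layer cortex-like, -0.02 in Ptprm and Il1rapl2 and 0.06 in Foxp2 and Syt6 nuclei. The summed markers of choroid plexus were 197 CPM in PS19 and 51.2 in PZKO, those of oligodendrocytes 286 and 246, of microglia 44.9 and 35.1, and of astrocytes 774 and 781. In those classes themselves the sums were 21190 and 20397 CPM in oligodendrocytes and 6462 and 6475 in microglia, and no defining marker of the 4 lists was at 0 in pooled excitatory nuclei. The part of these differences in the ratios of the scaffold genes was not tested. Subtracting a profile summed over all deposited nuclei left every pooled and fixed-share ratio within its interval. Excitatory nuclei held 57956268 of 100729375 kept UMIs in PS19 and 89973211 of 151995959 in PZKO. That profile was thus largely their own, and its subtraction cannot decide the question.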

How the data were processed

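The authors made the count matrices with Cell Ranger and the mm10 genome (version 7.0.1 in the submitters' processing notes, 8.0.1 in the header of the matrices), and the deposited values are these raw counts, without normalization. As in the study's methods, nuclei were kept with at least 600 UMIs, 300 genes and at most 5% mitochondrial UMIs. Scrublet (scanpy 1.11.5) doublets were removed at 0.8% per 1000 nuclei. Both libraries were clustered together without the compared genes (2000 variable genes, 30 principal components, 20 neighbours, leidenalg 0.10.2 at resolution 1), and a cluster was named from markers only with at least 3 detected, a score of at least 1 and a margin of 0.5. UMIs were summed per library and subtype with at least 25 nuclei and divided by their total to give CPM. Ratios have exact conditional binomial intervals, sums exact Poisson and shares exact binomial ones (95%). Differences from the pooled ratio and fixed shares have Wald intervals. Fixed shares weight each subtype by the mean of its UMI shares. A subtype and the next in order of level were called separated where Poisson intervals did not overlap and the order held in both libraries. Genes needed at least 100 UMIs over both libraries (500 for likeness). A gene was called past the fold at a log2 ratio of 0.5. Every member is named, as are the 3 lowest and 3 highest of 32 partner genes and the 3 genes most like each member. The members and lists were chosen with earlier results of these data known. GENCODE M21 held 32158 of the 32285 gene IDs and all 10 members. Spliced and unspliced reads were not told apart, overlapping genes annotated on the same strand (for example 2 in Homer1) could share reads, and whether intronic reads were counted is not given in the sources used here. The ratio and interval code was tested on simulated counts with known changes. Scaling alternatives used edgeR 4.0.16 (TMM) and DESeq2 1.42.0 (size factors). The others were the mean over nuclei, subtraction of a profile of all deposited nuclei, stricter nuclei filters, no doublet removal and another resolution. Further ones were the compared genes left in, no UMI minimum, equal subtype weights and thinning to 2000 UMIs. Dropping the UMI minimum could not change the ratio of a gene that already met it. Leaving out dentate granule-like or Cajal-Retzius-like nuclei was added after seeing the data.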

Additional observations from a re-analysis of the deposited data

Results flagged for a closer look

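Homer1, Homer2, Dlgap1, Dlgap2 and Dlgap3 had counting intervals above 0 in some neuron subtypes and below 0 in at least 1 other. Of 13 subtypes tested, the interval lay above 0 in 9, 3, 8, 12 and 6, in that order. It lay below 0 in 2 subtypes for Dlgap1 and in 1 for each of the others. The highest and the lowest of these ratios are given for each gene. With 1 library per genotype the difference between subtypes was not tested across replicates. The share of all genes that meet the same rule was not computed, so the number flagged is not read as a trait of these genes. Homer1 had a log2 ratio, PZKO over PS19, of 0.94 in upper-layer cortex-like nuclei and of -0.50 in the Meis2 and Zfhx3 inhibitory cluster. Homer2 had 0.61 in dentate granule-like nuclei and -0.19 in Adarb2 interneurons. Dlgap1 had 0.17 in near-projecting-like nuclei and -0.10 in the Ptprm and Il1rapl2 cluster. Dlgap2 had 0.38 in the Cpa6 and Tcerg1l cluster and -0.27 in the Meis2 and Zfhx3 cluster. Dlgap3 had 0.50 in upper-layer cortex-like nuclei and -0.27 in the Meis2 and Zfhx3 cluster, where its interval ended just below 0.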

How the results depend on the processing

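The median log2 ratio of the 10 genes was 0.23 pooled and 0.18 at fixed subtype shares. It was 0.30 and 0.24 under TMM scaling and 0.31 and 0.25 with DESeq2 size factors, and 0.15 pooled without the dentate granule-like cluster (an alternative added after the data were seen). Under the other alternatives the pooled median was 0.22 to 0.24 and the fixed-share median 0.18 to 0.20, though single genes moved beyond their counting intervals (5 of 10 pooled ratios with the mean over nuclei and 3 of 10 with the stricter filter). Each gene kept the sign of its pooled and of its fixed-share ratio under all 10 alternatives, though for Dlgap1 the pooled value without dentate granule-like nuclei was -0.00. Among these alternatives, the one with no UMI minimum could not change the values. The scalings shifted the pooled ratio of every gene by 0.07 (TMM) and 0.08 (DESeq2), and the share of genes past the fold that were higher in PZKO went from 31.3% to 48.3% and 50.3% (at fixed shares from 25.6% to 38.6% and 40.2%). Homer3 was past the fold, at -0.60, when pooled as a mean over nuclei. In the Cpa6 and Tcerg1l cluster Shank1 went from -0.15 to 0.26 and Dlgap1 from 0.01 to 0.23 without removal of doublets. The share of excitatory nuclei with a Homer1 UMI, PZKO minus PS19 in percentage points, was 10.2 at 4000 UMIs and 9.09 at 2000. No paired analysis was possible because there is 1 library per genotype, and for the same reason no replicate could be left out. Depth limits Homer3 outside 3 subtypes, and the Shank3 interval spanned 0 in 11 of 13 subtypes.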
